A study of Mus musculus with 7 samples.

Results

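The genes described here are the 10 that encode the signalling chains of the T cell receptor, its coreceptors and the first kinases and adaptor behind it: Cd3e, Cd3d, Cd3g, Cd247, Cd4, Cd8a, Cd8b1, Lck, Zap70 and Lat. They were chosen by name, and all 10 were found among the 55487 genes of the count table and passed the filter on low counts. Their RNA was measured in inguinal white adipose tissue, the fat pad of the groin, of NOD/ShiLtJ mice, a strain prone to autoimmune diabetes in which T cells take part. In 4 libraries, here imBAT after their titles, mice whose blood glucose lay between 190 and 230 mg/dL had received the fraction above 100 kDa of a buffer conditioned by brown adipocytes, under the skin, at 1.5 mg/kg for 7 days. The other 3 libraries, here sham, came from mice of the same strain labelled as treated with KRBH buffer, and the labels state neither their dosing schedule nor their blood glucose separately. Tissue was taken 2 to 8 weeks after the injections. The sources used here give neither the week nor the age of the animals, and do not say whether each library is a separate mouse. The p-values therefore measure only how far these libraries spread, which may be technical.

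A T cell recognises a peptide held by an MHC molecule through a receptor whose antigen-binding chains have almost no cytoplasmic tail of their own. Signalling is carried by the CD3 epsilon, delta and gamma chains and by the zeta chain that Cd247 encodes, through tyrosine motifs that the kinase LCK phosphorylates. ZAP-70 binds the phosphorylated motifs and phosphorylates LAT, the membrane adaptor on which the downstream enzymes assemble. CD4 and CD8, the coreceptors of helper and cytotoxic T cells, bind MHC class II and class I and bring LCK to the receptor. Groin fat of mice holds the inguinal lymph node, a tissue rich in T and B cells.

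Cd3g, Cd3d and Cd3e lie side by side on chromosome 9 (GRCm38), at 44969572 to 44980431, 44981786 to 44987339 and 44998740 to 45009627. Cd3g and Cd3d are read away from each other from starts 1355 bases apart. Cd247 lies on chromosome 1, at 165788681 to 165877277. The start regions of the 4 signalling chains are shown as given by RefSeq for GRCm38.p6, 5′ to 3′ on the strand of the gene. Each runs from 250 bases before to 50 bases after the start. A link between these sequences and the RNA levels was not tested. Capitals mark matches, on either strand, to letters that RUNX factors (TGTGGT), ETS factors (AGGAAG), TCF and LEF factors (CTTTGA) or E-box binding factors (CAGNTG) are known to bind, or to the TATA box letters (TATAAA). No match overlapped another.
Cd3e, chr9:45009562-45009861, minus strand: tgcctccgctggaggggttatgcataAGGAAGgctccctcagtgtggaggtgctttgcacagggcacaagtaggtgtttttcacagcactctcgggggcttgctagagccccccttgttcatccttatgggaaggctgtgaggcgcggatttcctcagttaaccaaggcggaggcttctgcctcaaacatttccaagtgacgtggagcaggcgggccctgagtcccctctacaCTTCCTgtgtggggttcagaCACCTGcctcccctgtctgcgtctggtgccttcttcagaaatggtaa
Cd3d, chr9:44981536-44981835, plus strand: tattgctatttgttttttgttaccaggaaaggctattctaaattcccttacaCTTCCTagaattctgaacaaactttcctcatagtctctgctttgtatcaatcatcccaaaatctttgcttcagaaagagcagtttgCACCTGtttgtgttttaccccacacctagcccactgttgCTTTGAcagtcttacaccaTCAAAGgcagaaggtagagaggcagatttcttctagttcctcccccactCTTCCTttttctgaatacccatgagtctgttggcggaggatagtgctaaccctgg
Cd3g, chr9:44980382-44980681, minus strand: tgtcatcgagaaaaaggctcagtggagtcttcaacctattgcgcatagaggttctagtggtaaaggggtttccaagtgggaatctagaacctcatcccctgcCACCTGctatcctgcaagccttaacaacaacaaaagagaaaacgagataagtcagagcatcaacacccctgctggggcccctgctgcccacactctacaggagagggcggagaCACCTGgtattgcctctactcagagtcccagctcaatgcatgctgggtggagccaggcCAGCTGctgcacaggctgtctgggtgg
Cd247, chr1:165788431-165788730, plus strand: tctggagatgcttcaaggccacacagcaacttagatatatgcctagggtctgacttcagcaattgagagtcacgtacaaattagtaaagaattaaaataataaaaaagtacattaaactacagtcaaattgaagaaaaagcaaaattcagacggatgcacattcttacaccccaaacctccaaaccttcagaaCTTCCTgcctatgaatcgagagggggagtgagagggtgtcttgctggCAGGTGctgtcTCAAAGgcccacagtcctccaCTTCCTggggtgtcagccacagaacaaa

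All 4 of these windows held the E-box letters, 3 held the ETS letters (not Cd3g), 2 held the TCF/LEF letters (Cd3d and Cd247), and none held the RUNX or TATA letters. Start regions were listed for 8 of the 10 genes, in 11 windows. Of these windows 10 held the E-box letters, 8 the ETS letters, 3 the TCF/LEF letters, 3 the RUNX letters and 0 the TATA letters. Over 32851 mouse start regions of the same length the shares were 51.4% for the E-box, 35.4% for ETS, 16.0% for TCF/LEF, 16.8% for RUNX and 13.6% for TATA. A match of letters is a description of the sequence and does not show binding.

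All 10 genes were lower in imBAT than in sham fat, to between 30.0% and 38.5% of the sham mean. Values are CPM, counts relative to the library total in edgeR's usual unit, after TMM scaling, which corrects totals for differences in composition. The 10 genes had 274 to 12501 counts in any library, so counting error was small beside the spread between libraries. Each was called by edgeR's quasi-likelihood test with Benjamini-Hochberg adjustment over all 26393 genes tested (adjusted p = 0.00462 to 0.0118), and log2 fold changes ran from -1.74 to -1.38, their median being -1.51. Over all genes tested, 19.3% were called lower and 24.3% were called higher in imBAT, and the median gene stood at -0.01. For all 10 genes the highest imBAT library lay below the lowest sham library, as it did for 25.2% of all genes tested. In bulk tissue, fewer T cells and less of these RNAs per T cell cannot be told apart. How much of each piece of tissue was inguinal lymph node was not tested.

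**Figure D1:**
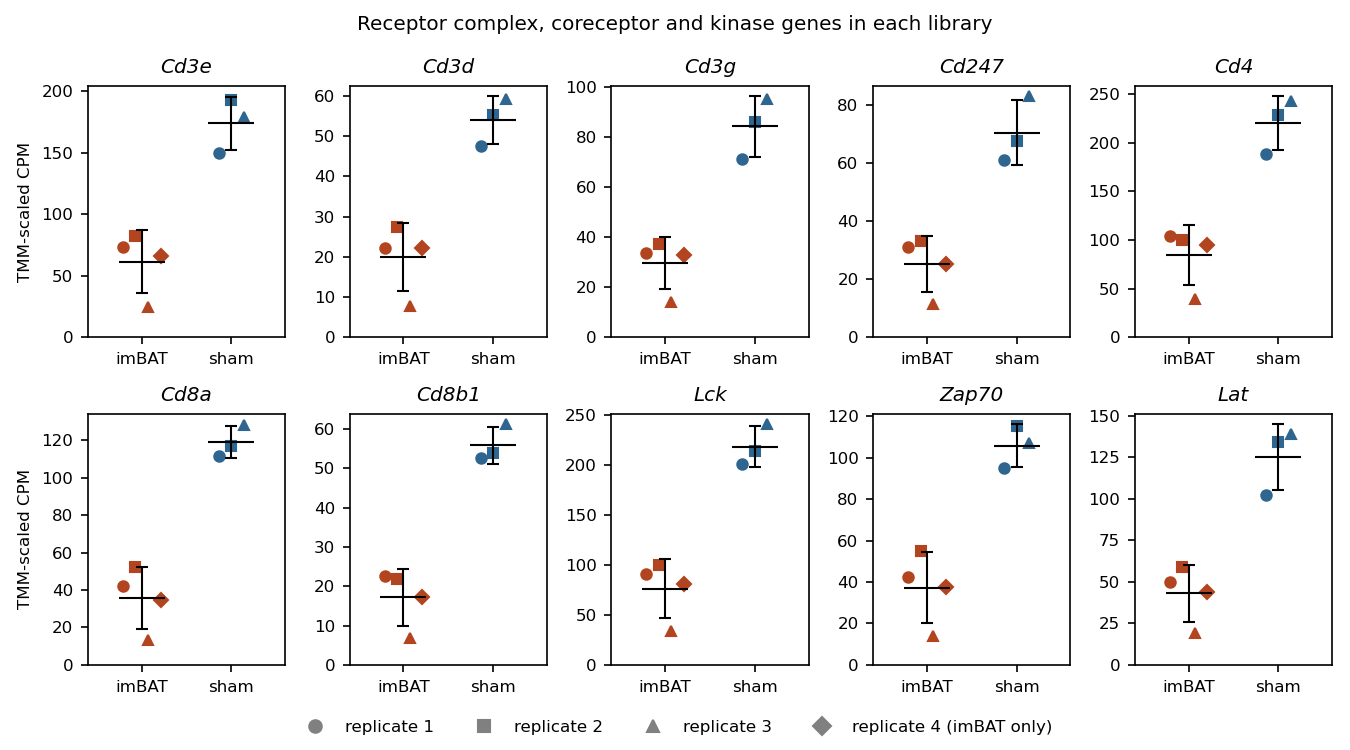
TMM-scaled CPM (vertical axes, from 0) of the 10 genes in the 4 imBAT and 3 sham libraries. Points are libraries, horizontal bars are means and whiskers are SD. In every panel all imBAT points lie below all sham points, and imBAT replicate 3 is the lowest.

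Cd3e encodes the epsilon chain, which pairs with both the delta and the gamma chain. It stood at 73.3, 82.3, 24.5 and 65.7 CPM in imBAT replicates 1 to 4, against 149.8, 192.7 and 179.1 CPM in sham replicates 1 to 3. The highest imBAT library had 55.0% of the lowest sham library. Its log2 fold change was -1.50 ± 0.34 (SE, edgeR adjusted p = 0.00935), which is 2.83-fold lower in imBAT.

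The other signalling chains followed the same order of libraries within imBAT. Cd3d, the delta chain, had 22.3, 27.4, 7.67 and 22.3 CPM in the imBAT libraries, against 47.5, 55.2 and 59.1 CPM in the sham libraries. Cd3g, the gamma chain, had 33.8, 37.1, 14.1 and 32.9 CPM in the imBAT libraries, against 71.2, 86.1 and 95.1 CPM in the sham libraries. The groups did not overlap for either gene, and edgeR gave log2 fold changes of -1.44 ± 0.35 for Cd3d (adjusted p = 0.0118) and -1.51 ± 0.29 for Cd3g (adjusted p = 0.00462). Cd247, the zeta chain, which natural killer cells also use, had 31.0, 33.1, 11.4 and 25.2 CPM in the imBAT libraries, against 60.9, 67.7 and 83.0 CPM in the sham libraries. Its log2 fold change was -1.48 ± 0.32 (edgeR adjusted p = 0.00684), and its value is uncertain because 3007 of its 5329 exon bases lie opposite exons of Pou2f1, and the sources used here do not state the strand setting of the counting. It also shares 206 exon bases with the transcript Gm16565 on its own strand, at 3.85 CPM in imBAT and 10.5 CPM in sham. Pou2f1, which encodes the widely expressed factor OCT-1, averaged 53.8 ± 5.45 CPM in imBAT and 94.1 ± 5.49 CPM in sham libraries (SD, n = 4 and 3), a log2 fold change of -0.81 (edgeR adjusted p = 0.00134). Cd3e shared 135 of its 4080 exon bases with the low antisense transcript Gm48719, at 1.34 ± 0.71 CPM in imBAT and 3.68 ± 0.75 CPM in sham libraries.

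Of the coreceptors, Cd4 had the smallest log2 fold change of the 10 genes and Cd8a the largest in size. Cd4 stood at 104.2, 100.2, 39.1 and 95.1 CPM in imBAT replicates 1 to 4, against 188.8, 228.6 and 242.7 CPM in the sham libraries. The other imBAT libraries lay close together, and imBAT replicate 3 stood well below them. The log2 fold change of Cd4 was -1.38 ± 0.30 (edgeR adjusted p = 0.00748). Cd8a, the alpha chain of CD8, had 42.3, 52.3, 13.2 and 34.9 CPM in the imBAT libraries, against 111.8, 116.7 and 128.4 CPM in the sham libraries. Cd8b1, the beta chain, which with alpha makes the coreceptor of conventional cytotoxic T cells, had 22.7, 21.9, 6.74 and 17.3 CPM in the imBAT libraries, against 52.6, 53.9 and 61.2 CPM in the sham libraries. No imBAT library reached the sham range for either chain. Cd8a was 3.33-fold lower (log2 fold change -1.74 ± 0.37, edgeR adjusted p = 0.00695) and Cd8b1 3.25-fold lower (-1.70 ± 0.35, edgeR adjusted p = 0.00582) in imBAT. The 2 CD8 genes neighbour each other on chromosome 6, Cd8b1 at 71322788 to 71337494 and Cd8a at 71373427 to 71379173, while Cd4 lies elsewhere on that chromosome, at 124864692 to 124888221 (GRCm38).

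Lck, the SRC-family kinase bound by the tails of CD4 and CD8, had 90.6, 99.5, 33.6 and 81.3 CPM in the imBAT libraries, against 200.6, 213.3 and 240.5 CPM in the sham libraries. Zap70, the kinase recruited to phosphorylated CD3 and zeta chains, had 42.3, 54.9, 13.9 and 37.5 CPM in the imBAT libraries, against 95.1, 115.4 and 107.2 CPM in the sham libraries. Lat, the adaptor, had 49.99, 59.0, 19.2 and 43.8 CPM in the imBAT libraries, against 102.4, 134.1 and 138.9 CPM in the sham libraries. The groups stood apart for all 3 genes, with imBAT replicate 2 the highest of its group and imBAT replicate 3 the lowest. Their log2 fold changes in edgeR were -1.52 ± 0.31 for Lck (adjusted p = 0.00612), -1.51 ± 0.37 for Zap70 (adjusted p = 0.0117) and -1.54 ± 0.32 for Lat (adjusted p = 0.00639).

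**Figure D2:**
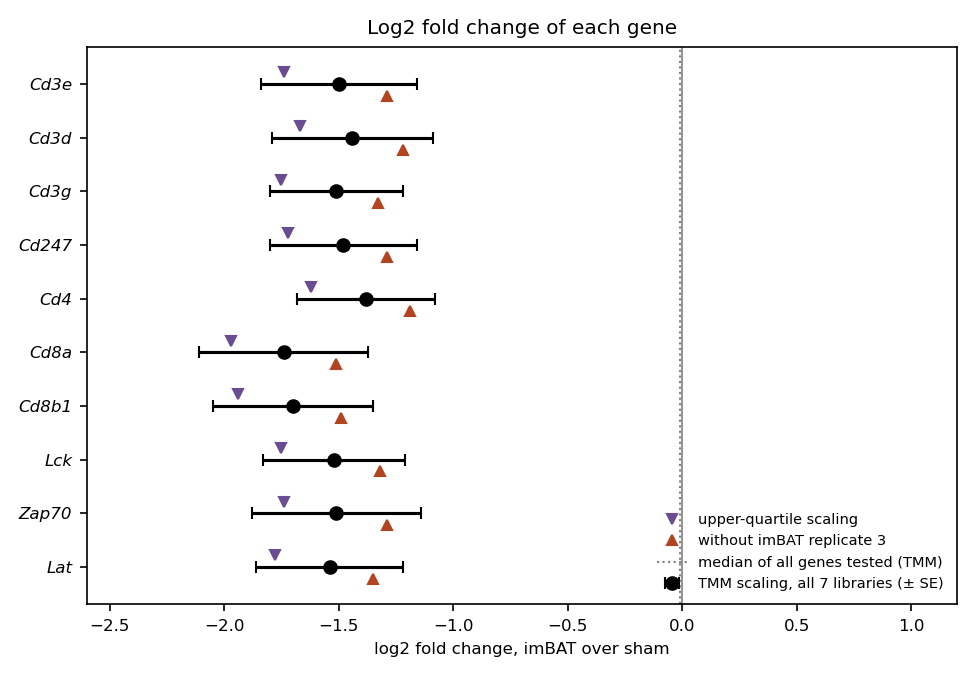
Log2 fold change of imBAT over sham (horizontal axis) for each gene. Circles with whiskers are the edgeR estimate with its SE over all 7 libraries, down-pointing triangles use upper-quartile scaling and up-pointing triangles leave out imBAT replicate 3. All estimates lie between -1.97 and -1.19, far left of the dotted median of all genes at -0.01.

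The genes differed little from one another in how they ranked the libraries. imBAT replicate 3 was the lowest imBAT library for all 10 genes, imBAT replicate 4 was the next lowest for all 10, and imBAT replicate 2 was the highest for 8, with imBAT replicate 1 highest for Cd4 and Cd8b1. In the sham group, replicate 1 was the lowest for all 10 genes. The imBAT libraries were the more spread, with coefficients of variation of 35.2% to 46.5% across the 10 genes, against 7.18% to 16.0% in sham. The summed level of the 10 genes was 512.5, 567.7, 183.4 and 456.0 CPM in imBAT replicates 1 to 4, against 1081, 1264 and 1335 CPM in sham replicates 1 to 3. Without imBAT replicate 3 all 10 genes remained called, with log2 fold changes of -1.51 to -1.19 and a median of -1.31 (edgeR adjusted p up to 0.000723).

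Whether the parts of the complex moved by different amounts was examined within each library, where no scaling is needed. The count of each of the other 9 genes was set against the Cd3e count of the same library. Across these 9 ratios the groups overlapped for every gene, and the differences of group means ran from -0.27 for Cd8a to 0.16 for Cd4 on the log2 scale. The ratios differed between libraries of 1 group by an SD of 0.07 to 0.16 in imBAT and 0.05 to 0.20 in sham on the log2 scale. No ratio passed an exact two-sided permutation test over libraries (smallest p = 0.114, smallest adjusted p = 0.513 over 9), a test that cannot go below p = 0.0571 with 4 libraries against 3. Cd3d, Cd3g and Cd247 differed by 0.04 to 0.05 and Lck, Zap70 and Lat by -0.04 to 0.01 per Cd3e count. The edgeR fit with libraries scaled to their Cd3e count called 0 of the 9 genes (lowest adjusted p = 0.674, 0 with an unadjusted p under 0.05), while over all genes 0.0796% were called lower and 69.2% higher on that scale. Its SEs, 0.58 to 0.59 for these genes, exceed the spread of the ratios between libraries, so that fit could not have shown small differences.

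The CD8 chains were set against Cd4 in the same way, and neither ratio passed the exact permutation test. The ratio of Cd8a to Cd4 counts was 0.406, 0.522, 0.338 and 0.366 in imBAT replicates 1 to 4, against 0.592, 0.510 and 0.529 in the sham libraries. The groups overlapped through imBAT replicate 2, and the mean log2 ratio was -1.31 ± 0.27 in imBAT and -0.88 ± 0.11 in sham (SD, n = 4 and 3; exact permutation p = 0.114, adjusted p = 0.342 over the 3 ratios tested). With Cd8b1 in place of Cd8a the ratio was 0.218, 0.218, 0.172 and 0.182 in imBAT, against 0.279, 0.236 and 0.252 in sham, and the groups did not overlap (log2 difference -0.37, exact permutation p = 0.0571, the smallest the test can give). The 2 CD8 chains overlapped in their proportion, with 0.419 to 0.537 Cd8b1 counts per Cd8a count in imBAT and 0.462 to 0.476 in sham (log2 difference 0.06, exact permutation p = 0.571, adjusted p = 0.571).

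**Figure D3:**
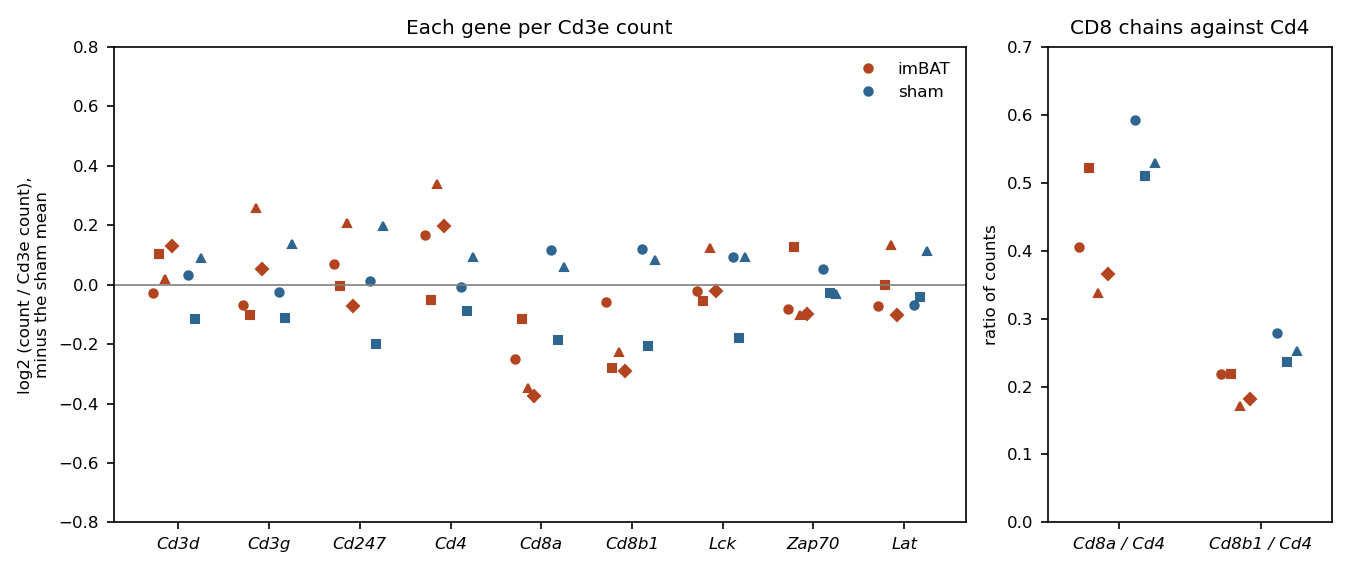
Left, log2 ratio of each gene's count to the Cd3e count of the same library, minus the sham mean of that ratio; right, ratio of Cd8a and Cd8b1 counts to Cd4 counts. Marker shapes are replicates 1 (circle), 2 (square), 3 (triangle) and 4 (diamond). The groups overlap for all 9 genes on the left, and on the right they do not overlap for Cd8b1 over Cd4.

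Against Ptprc, which encodes the pan-leukocyte phosphatase CD45 that also activates LCK, none of the 10 genes stood apart. Cd3e counts were 0.148, 0.144, 0.0986 and 0.127 of the Ptprc count in imBAT replicates 1 to 4, against 0.112, 0.141 and 0.121 in the sham libraries. The groups overlapped for all 10 genes, with log2 differences of -0.23 for Cd8a to 0.20 for Cd4 (smallest exact permutation p = 0.229, smallest adjusted p = 0.889 over 10). In the edgeR fit scaled to Ptprc, 0 of the 10 genes were called (lowest adjusted p = 0.604, 0 with an unadjusted p under 0.05), where 0.102% of all genes were called lower and 79.6% higher. A p above the threshold does not show that the proportions were equal.

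Set per kilobase of exons, which allows genes to be compared with each other, Lck was the most abundant of the 10 in both groups, at 26.0 ± 10.0 CPM per kb in imBAT and 74.5 ± 6.95 in sham (SD, n = 4 and 3). Cd4 came next, at 21.0 ± 7.59 CPM per kb in imBAT and 54.6 ± 6.93 in sham. Lat (15.5 ± 6.16 and 45.2 ± 7.16 CPM per kb in imBAT and sham) and Cd3e (15.1 ± 6.27 and 42.6 ± 5.37) differed by less than the spread between libraries. In sham libraries, Cd8b1, Zap70, Cd8a and Cd3d followed at 37.7 to 29.7 CPM per kb, and neighbours in that order differed by less than the larger of their SDs. In imBAT libraries the same 4 genes had 9.81 to 12.4 CPM per kb, in the order Zap70, Cd8b1, Cd3d and Cd8a, where neighbours also differed by less than their SDs. These SDs include shifts that the genes share between libraries, so they do not measure how 2 genes compare within a library. Library by library, Lck always exceeded Cd4, and Cd8b1 and Zap70 always exceeded Cd8a. Lat exceeded Cd3e except in imBAT replicate 4, and the order of Zap70 and Cd8b1 varied. Cd3g, at 9.02 ± 3.17 CPM per kb in imBAT and 25.7 ± 3.69 in sham, and Cd247, at 4.73 ± 1.84 in imBAT and 13.2 ± 2.12 in sham, were the lowest. Lengths were all annotated exon bases of a gene in GENCODE M21, so a gene with long, rarely used exons is understated, and the level of Cd247 is uncertain because of its exons opposite Pou2f1.

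**Figure D4:**
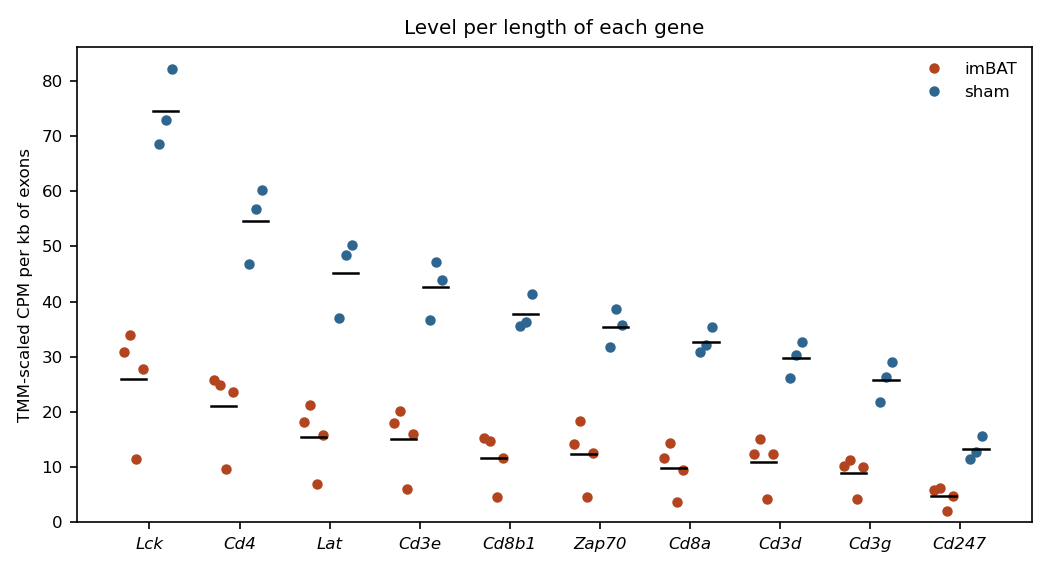
TMM-scaled CPM per kilobase of annotated exons (vertical axis, from 0) for the 10 genes in order of the sham mean. Points are libraries and bars are group means. Lck is highest and Cd247 lowest in both groups, from 26.0 to 4.73 in imBAT and from 74.5 to 13.2 in sham.

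Other genes of early T cell receptor signalling were lower with them. Of 32 tested, 29 fell and 0 rose, the median of the list being -1.43 on the log2 scale. Over all genes tested, 19.3% were called lower in imBAT. The smallest p-values belonged to Ptprc, Trat1, which stabilises the receptor at the surface (4.99 ± 1.72 CPM in imBAT and 18.4 ± 2.86 in sham, 3.68-fold lower, edgeR adjusted p = 0.00238), the ubiquitin ligase Cbl (1.48-fold lower, edgeR adjusted p = 0.0035) and the inhibitory adaptor Sla2 (3.19-fold lower, edgeR adjusted p = 0.00351). Ptprc averaged 459.0 ± 144.0 CPM in imBAT and 1390 ± 72.4 CPM in sham. The kinases Fyn and Csk had log2 fold changes of -0.65 and -0.72, and the phospholipase Plcg1 had -0.48 (edgeR adjusted p = 0.0057, 0.0092 and 0.0166). Of the 3 not called, the adaptor Nck1 stood at -0.14 ± 0.09, the transcription factor Nfatc2 at -0.44 ± 0.16 (edgeR adjusted p = 0.052), and Dok2, an adaptor also found in myeloid cells, at 0.18 ± 0.17, the only value above 0 in the list.

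Of 4 tested constant regions of the antigen-binding chains 3 fell and 0 rose, the median being -1.48 on the log2 scale. The share called lower over all genes tested was 19.3%. Trac, of the alpha chain, averaged 37.8 ± 15.5 CPM in imBAT and 108.0 ± 14.7 CPM in sham (log2 fold change -1.52, edgeR adjusted p = 0.00809), and Trbc1 and Trbc2, of the beta chain, had log2 fold changes of -1.54 and -1.45 (edgeR adjusted p = 0.00922 and 0.0122). Trbc1 and Trbc2 are near-identical and may share reads. Trdc, of the delta chain of gamma-delta T cells, stood at 3.14 ± 0.34 CPM in imBAT and 5.16 ± 1.84 CPM in sham and was not called (log2 fold change -0.72, edgeR adjusted p = 0.0554). All 4 constant regions were called lower without imBAT replicate 3, and likewise with upper-quartile scaling.

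Over the 7 libraries, 5 other genes tracked the mean profile of the 10 most closely, by the root mean square difference of centred log2 CPM among 19560 candidates with a mean of at least 1 CPM. Trac was the closest, at 0.039, followed by Nxpe3 at 0.046, the T cell adhesion receptor Cd2 at 0.050, the T cell transcription factor Tcf7 at 0.058 and Septin1 at 0.060. The median candidate stood at 1.004. Among the 10 genes themselves the distance was 0.046 for Lck, 0.064 for Cd3e and 0.065 for Lat, and greatest for Cd4 at 0.130 and Cd8a at 0.157. All these profiles share the depth and scaling of the same 7 libraries.

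Markers of other cell types moved with these genes, and their part in the result was not tested. For comparison, 19.3% of all genes tested were called lower in imBAT and 24.3% higher. All 12 B cell markers fell (median log2 fold change -1.77), and their summed level was 352.7 to 932.8 CPM in imBAT and 2210 to 2622 CPM in sham libraries. Among them Blk, a kinase of B cell receptor signalling, was 3.53-fold lower and the complement receptor Cr2 3.42-fold lower (edgeR adjusted p = 0.00145 and 0.00191). Of 7 tested markers of lymph node stroma and venules 5 fell (median -1.41), with sums of 213.9 to 509.8 CPM in imBAT and 765.0 to 1168 CPM in sham. Glycam1, a mucin made by lymph node venules, was 3.76-fold lower and Chst4, which sulphates such mucins, 4.36-fold lower (edgeR adjusted p = 0.00435 and 0.0062). Glycam1 made up a large part of these sums, at means of 235.0 CPM in imBAT and 883.0 CPM in sham. The 2 not called, Cxcl13 and Pdpn, stood above 0, at log2 fold changes of 0.48 and 0.53 (edgeR adjusted p = 0.422 and 0.108). Of 8 markers of naive and recirculating T cells 7 fell (median -1.53), with sums of 429.5 to 1060 CPM in imBAT and 1720 to 2282 CPM in sham. Ccr7, a chemokine receptor that guides lymphocytes into lymph nodes, was 3.28-fold lower (edgeR adjusted p = 0.00828).

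Some of the 10 genes are also made outside T cells, and the markers of those cells were read beside them. Counts of these markers are to be read against the 19.3% of all tested genes called lower in imBAT and the 24.3% called higher. Natural killer cells use Cd247, Lck and Zap70: of their 7 markers 2 rose and 1 fell (median -0.18), with sums of 13.1 to 18.1 CPM in imBAT and 14.1 to 19.9 CPM in sham. The 2 that rose were Klra8, at 2.64-fold higher, and Klra9 (edgeR adjusted p = 0.0122 and 0.0272), and reads of both may be shared with close relatives. Eomes, which some T cells also make, was 2.30-fold lower (edgeR adjusted p = 0.0128). Without imBAT replicate 3, 1 of the 7 rose and 1 fell. Dendritic cells, of which a subset makes Cd8a, had 5 of 8 markers lower (median -0.81). Their sums were 208.3 to 415.6 CPM in imBAT and 735.9 to 760.6 CPM in sham. Most of these sums came from Wdfy4, at means of 227.0 CPM in imBAT and 591.0 CPM in sham. Flt3 was 3.27-fold and Wdfy4 2.60-fold lower (edgeR adjusted p = 0.00287 and 0.00373). Xcr1 and Clec9a fell less, with log2 fold changes of -0.98 and -0.63. The 3 not called were Batf3, at -0.52, and Zbtb46 and Cd209a, both at 0.01. Mast cells and platelets also make Lat. Of 7 tested mast cell markers 6 rose (median 2.23, sums of 195.4 to 252.1 CPM in imBAT and 68.3 to 107.8 CPM in sham). Platelet markers were mixed: of 5, 3 rose, 1 fell and 1 was not called (median 0.57, sums of 29.9 to 46.3 CPM in imBAT and 20.6 to 22.8 CPM in sham). Mcpt4 and Cma1, mast cell proteases, were 4.93-fold and 5.80-fold higher (edgeR adjusted p = 0.00126 and 0.00155). The platelet chemokines Pf4 and Ppbp were 4.84-fold and 12.2-fold higher (edgeR adjusted p = 0.00237 and 0.0161). Ppbp was low, at 0.963 ± 0.995 CPM in imBAT and 0.077 ± 0.056 CPM in sham (SD). Of the same list, Gp1ba fell (log2 fold change -0.73, edgeR adjusted p = 0.022) and Gp9 was not called (-0.42 ± 0.70). Of 9 macrophage markers 4 rose and 1 fell (median 0.52), with sums of 813.6 to 2149 CPM in imBAT and 1123 to 1271 CPM in sham; the scavenger receptors Cd163 and Mrc1 were 7.20-fold and 6.70-fold higher (edgeR adjusted p = 0.00145 and 0.00159).

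Of 6 thymocyte markers, Ptcra, which encodes the pre-T cell receptor alpha chain, and Rag1 and Rag2, the recombinase genes of both T and B cell precursors, were too low to test, at means of 0.032 to 0.088 CPM in imBAT and 0.041 to 0.20 CPM in sham. Of the 3 that could be tested, Dntt and Arpp21 were 3.36-fold and 2.57-fold lower (edgeR adjusted p = 0.0114 and 0.021), at 0.523 and 0.496 CPM in imBAT and 1.78 and 1.27 CPM in sham. The summed list overlapped between the groups, at 32.9 to 57.7 CPM in imBAT and 19.4 to 41.4 CPM in sham. All 10 adipocyte markers rose (median log2 fold change 3.16), where 24.3% of all genes tested were called higher. Their sums were 11890 to 28090 CPM in imBAT and 1981 to 4287 CPM in sham. Among them the lipid droplet protein gene Plin4 was 10.4-fold higher (edgeR adjusted p = 0.000767). Leptin (Lep), the fat cell hormone, was at 240.0 ± 71.7 CPM in imBAT and 1.09 ± 1.07 CPM in sham (edgeR adjusted p = 0.000816). The library with the lowest level of the 10 genes, imBAT replicate 3, had the highest adipocyte sum. Within imBAT, replicate 2 had the highest level of the 10 genes and the lowest adipocyte sum, but replicate 1 exceeded replicate 4 in both. Within sham, replicate 3 had both the highest level of the 10 genes (1335 CPM) and the highest adipocyte sum (4287 CPM). A relation between the 2 levels was not tested. No list had a marker at 0 in every library.

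**Figure D5:**
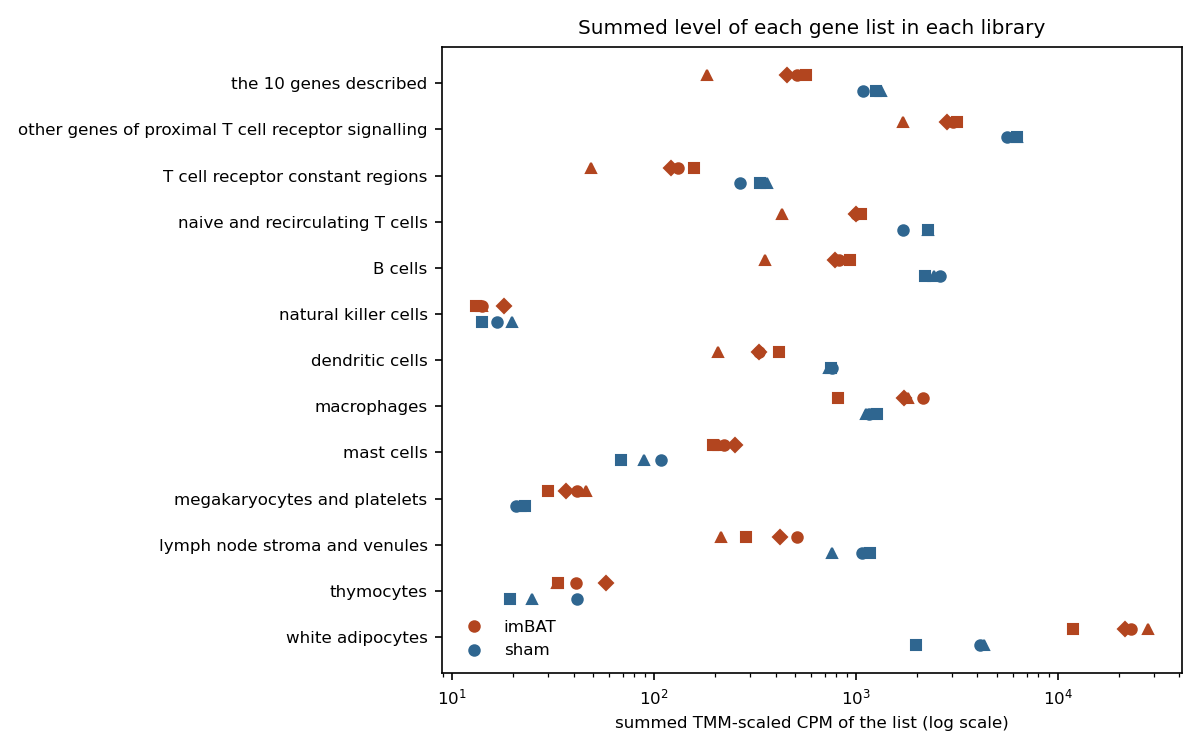
Summed TMM-scaled CPM (horizontal log axis) of the 10 genes and of each marker list in each library, with imBAT above sham in each row and marker shapes for replicates 1 (circle), 2 (square), 3 (triangle) and 4 (diamond). T cell, B cell, dendritic and lymph node lists are lower in all imBAT libraries, natural killer markers overlap, and mast cell, platelet and adipocyte lists are higher in all imBAT libraries.

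The genes beside these loci varied in direction, and their counts are to be read against the 19.3% of all tested genes called lower and the 24.3% called higher. Within 100 kb of Cd3e, Cd3d and Cd3g, 13 other genes were tested, of which 4 fell and 0 rose: Gm48719 and Gm48720, both inside Cd3e, and Kmt2a and Gm39326. Ube4a, the gene next to Cd3g, stood at 0.15 (121.0 CPM in imBAT and 109.0 CPM in sham, edgeR adjusted p = 0.189) on the log2 scale. Around Cd4, 7 of 14 tested genes rose and 1, Lag3, which encodes a CD4-related inhibitory receptor of T cells, fell (log2 fold change -0.81, 7.96 CPM in imBAT and 13.9 CPM in sham, edgeR adjusted p = 0.00303). Around Cd8a and Cd8b1, 5 of 9 fell and 1, Rmnd5a, rose (log2 fold change 0.55, edgeR adjusted p = 0.0043). The 5 were unnamed transcripts, of which Gm44110, Gm44174 and Gm44175 lie between the 2 CD8 genes.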

How the data were processed

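RNA from inguinal white adipose tissue of 4 imBAT and 3 sham libraries was read on an Illumina NovaSeq 6000. Alignment used STAR 2.7.9a and the Ensembl release 101 genome, per the labels' protocols. Salmon 1.5.2, limma, edgeR, Subread and featureCounts 2.0.3 also appear in the submitters' processing notes, with no role. No source used here states the strand setting or how multiply mapped reads were treated. The authors deposited raw counts per gene in 1 table of 55774 rows. Here 287 rows that repeated a gene identifier with identical counts were dropped, leaving 55487 genes, and each count column was matched to a library by its title. Totals were 43360208 to 63650016 counts per imBAT library and 41025786 to 44983250 per sham library. Library pairs of 1 group differed by a chi-square of 22.7 to 243.5 per degree of freedom, so none was a repeat deposit.

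Groups follow the treatment label, and replicate numbers follow accession order and only name libraries. Counts were fitted with edgeR 4.0.16 in R 4.3.3 (robust quasi-likelihood, TMM scaling, default filter with a minimum count of 10, group alone), with p adjusted over 26393 genes and called under 0.05. The SE is the log2 fold change over the square root of F. Further fits scaled each library to its Ptprc or Cd3e count, and ratios of counts were tested with exact two-sided permutation tests over the 35 splits. Permutation tests of each gene per Cd3e and per Ptprc count were added after seeing the data. Centred log2 CPM used a prior count of 2. Coordinates and exon lengths came from GENCODE M21 (GRCm38), which held 55227 of the identifiers. The edgeR and voom fits were tested on simulated counts.

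Named genes are all 10 described, up to 4 called genes per direction with the smallest p of the signalling list and any that went against it, all constant regions, the 2 of each marker list with the smallest p, and the 5 most similar profiles. Fyn, Csk, Plcg1, Nck1, Nfatc2, Klra9, Pou2f1, the gene-overlap transcripts and the neighbouring genes were chosen after their values were seen. So were Gp1ba and Gp9 of the platelet list and Cxcl13 and Pdpn of the lymph node list. The same holds for Xcr1, Clec9a, Batf3, Zbtb46 and Cd209a of the dendritic list. The 10 genes and all lists were chosen with earlier results of these data known. Alternatives were RLE and upper-quartile scaling, other filters, DESeq2 1.42.0, limma 3.58.1 voom with quality weights, a replicate block, other scaling genes, leaving out each library and a threshold of 0.1. Tcrg-C1, Tcrg-C2 and Tcrg-C4 were listed but found under no such symbol and were not analysed here. Some results of the marker lists and 1 ratio are not reported here.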

Additional observations from a re-analysis of the deposited data

Results flagged for a closer look

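The highest or lowest of the 4 imBAT libraries was compared with the others for the 10 genes, the 3 ratios and the 13 summed lists, and chance marks about 1 in 20 such groups. For Cd4 the gap between imBAT replicate 3, at 39.1 CPM, and the nearest other imBAT library, at 95.1 CPM, was 0.861 of the range of the group. For the summed naive and recirculating T cell markers the gap was 0.897 of the range, imBAT replicate 3 standing at 429.5 CPM where the rest of its group had 995.1 to 1060 CPM. The other 9 genes were also lowest in imBAT replicate 3 without reaching the critical value. Without that library Cd4 had a log2 fold change of -1.19 and was still called by edgeR (adjusted p up to 0.000723 over the 10 genes).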

How the results depend on the processing

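Of 140 log2 fold changes of the 10 genes under the alternatives, 137 kept their direction and their call, in a range of -2.13 to -1.19. With no expression filter, 42855 genes entered the edgeR fit and 7 of the 10 were called; Cd3e (adjusted p = 0.0508), Cd3d (0.0558) and Zap70 (0.0636) were not. All 10 were called in each of the other alternatives, DESeq2 and voom included. Upper-quartile scaling moved the median of all genes to -0.25, and the calls to 8180 lower and 4722 higher, where TMM gave 5084 lower and 6407 higher. The median of the 10 genes minus that of all genes was -1.50 under both scalings. Leaving out 1 library gave 3024 to 5097 genes called lower over all genes, with 3024 (11.1%) without sham replicate 2 and 3074 (11.3%) without sham replicate 3, and 10 of the 10 genes called each time. The Cd8a to Cd4 difference ran from -0.56 to -0.35 and the Cd8b1 to Cd8a difference from 0.01 to 0.13 on leaving out 1 library. With upper-quartile scaling 2 of 5 platelet markers rose, where TMM gave 3. No gene of the 10 was called relative to Ptprc or Cd3e under any alternative run (0 each).

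The numbers that open the titles (28, 29 and 31 occur in both groups) were tried as a replicate block. The deviations of libraries with the same number had correlations of -0.01, 0.11 and 0.10, and those with different numbers -0.14 to 0.04. The same-number values were not over 0.1 in every pair, so the main fit left the libraries unpaired. With so few libraries these values do not settle whether the numbers pair them. What they mark is not stated. The block gave 4655 genes called lower over all genes and 10 of the 10 genes, with a median of -1.80. Depth did not limit the 10 genes, at 274 counts or more.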
